A study of Mus musculus with 14 samples.

Results

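DNA methylation in the mammary fat pad was compared between obese mice that lost weight after vertical sleeve gastrectomy (DIO-VSG) and obese mice that lost weight on a low-fat diet alone (DIO-LFD). The comparison held 4 DIO-VSG and 3 DIO-LFD mice, so 7 of the 14 mice measured, chosen by their treatment label and with every one of the 75761 sites kept. Both groups were wild-type C57BL/6N females (C57BL/6NCrl in the methods) made obese on a diet with 60% fat and then moved to the same low-fat diet, so the groups differed in the operation. In DIO-VSG mice most of the lateral stomach was excised, whereas DIO-LFD mice underwent a sham procedure. E0771 mammary tumor cells were placed in 1 fat pad 22 weeks after the mice were first assigned to diets, and the fat pad analysed was the one on the other side. The labels also list the E0771 line and mammary cancer as cell type for every sample, although the tissue is given as normal. The other 7 mice, 3 never obese on the low-fat diet (CON-LFD) and 4 kept obese on the high-fat diet (DIO-HFD), entered the choice of sites that vary, the shared estimate of the spread, the distances between mice and the sums over paired sites, and were otherwise quoted for comparison at single sites. A fat pad holds adipocytes, ducts, vessels and immune cells, and a change in their proportions cannot be told apart from a change within a cell type. The methylation data hold no marker transcript. The paper also reports RNA-Seq of contralateral mammary fat, which was not used here, so the labelled tissue was not checked in that way.

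Methyl groups on the cytosine of a CpG are copied when a cell divides. CpG-rich stretches called islands, which overlap many promoters, are mostly free of methylation in healthy tissue, whereas gene bodies and the DNA between genes are mostly methylated. Adipose tissue changes in cell content and lipid load as weight is lost, and methylation in bulk tissue reflects both the cells present and their marks. Reduced-representation bisulfite sequencing (RRBS) cuts DNA at CCGG with the enzyme MspI and reads short fragments, so many measured cytosines lie within CCGG or close to it. The level at a site is the methylated share of its reads. No read numbers accompanied the levels, so the depth behind a value is unknown.

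DIO-VSG mice resembled each other closely, and DIO-LFD mice spread around them. Over the 65610 sites whose level varied between the 14 mice by an SD of 0.05 or more, the mean level was 64.8%, 64.2%, 64.5% and 64.8% in DIO-VSG mice 1 to 4. It was 65.2%, 61.3% and 62.8% in DIO-LFD mice 1 to 3, so that DIO-LFD mouse 1 lay above every DIO-VSG mouse and the other two lay below them all. The group means were 64.6% ± 0.310 (SD, n = 4) and 63.1% ± 1.93 (SD, n = 3), a difference of 1.46 percentage points that ranged from -0.980 to 3.52 over pairs of mice from the 2 groups (two-sided exact permutation test, p = 0.286). With 3 against 4 mice the smallest p this exact test allows is 0.0571. Without DIO-LFD mouse 2 the difference was 0.574 points and without DIO-LFD mouse 1 it was 2.49 points.

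By class of site, the difference over all 7 mice was largest in exons, an order that did not hold without DIO-LFD mouse 2. Exon sites had a mean level of 70.4% ± 0.294 in DIO-VSG mice (SD, n = 4) and 68.4% ± 3.14 in DIO-LFD mice (SD, n = 3), a difference of 2.04 points. Sites in introns differed by 1.79 points, promoter sites outside CpG islands by 1.64 and sites without any flag for a promoter, gene or island by 1.34. Promoter sites within CpG islands differed by 0.440 points, at 42.6% ± 0.394 (SD, n = 4) and 42.1% ± 0.549 (SD, n = 3). At the 5055 sites with a mean level under 20% the difference was -0.0757 points, against 1.72 at the 39042 sites between 20% and 80% and 1.35 at the 21513 sites over 80%. The 2 groups overlapped in each of these classes, and adjusted p-values of the exact permutation tests over 11 classes lay between 0.349 and 0.857. In each class the SD over DIO-VSG mice was below that over DIO-LFD mice. The values and their order rested on single DIO-LFD mice. Without DIO-LFD mouse 2 the difference was 0.504 points in exons, 0.593 in introns, 0.471 at promoters outside islands and 0.824 at sites without a flag, and without DIO-LFD mouse 1 these were 3.65, 3.11, 2.95 and 1.93.

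**Figure D1:**
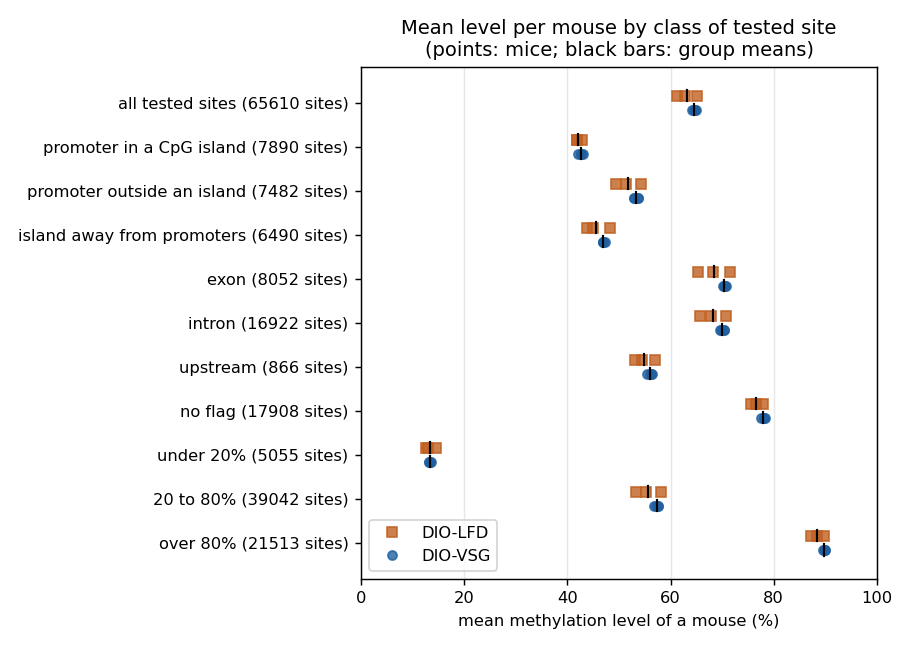
Mean methylation level of each DIO-LFD mouse (squares, 3 mice) and DIO-VSG mouse (circles, 4 mice), in percent, over all tested sites and by class of site; black bars are group means. The DIO-VSG mice cover 64.2% to 64.8% over all sites and lie within the range of the DIO-LFD mice, 61.3% to 65.2%.

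The same spread was seen site by site. The mean absolute difference in level between 2 DIO-VSG mice was 6.07 to 6.67 percentage points over the tested sites, and between 2 DIO-LFD mice 8.05 to 10.6 points. DIO-VSG mice were 6.45 to 6.87 points from DIO-LFD mouse 1, 7.24 to 7.72 from DIO-LFD mouse 3 and 9.61 to 10.1 from DIO-LFD mouse 2. Each DIO-VSG mouse was thus nearer to DIO-LFD mouse 1 than the other DIO-LFD mice were, and DIO-LFD mouse 2 lay farthest from both groups. Against the never-obese CON-LFD mice the distances of DIO-VSG mice ran from 6.25 to 9.38 points. Against DIO-HFD mice they ran from 6.64 to 7.45 for DIO-HFD mouse 1 and up to 13.7 points for the others. DIO-HFD mouse 1 lay 14 to 14.7 points from the rest of its own group, which widened the shared estimate of the spread.

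**Figure D2:**
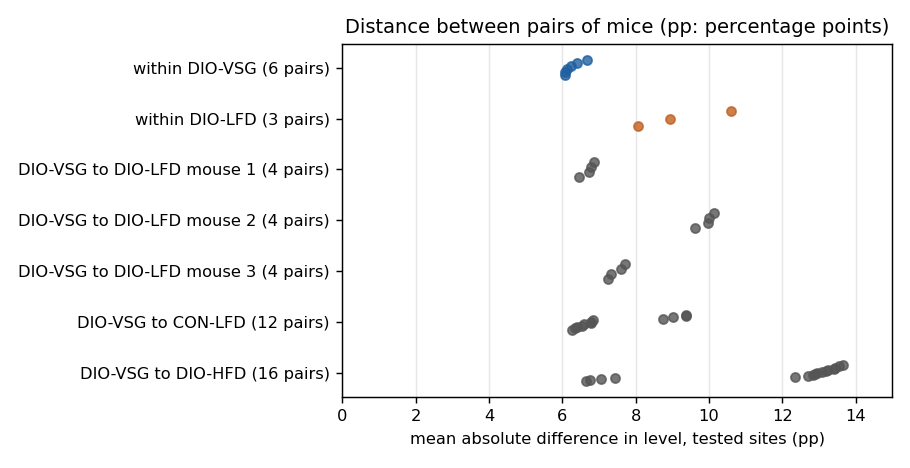
Mean absolute difference in level between 2 mice, in percentage points over the 65610 tested sites; each point is a pair of mice. The 6 pairs within DIO-VSG lie at 6.07 to 6.67, and the distances of DIO-VSG mice to the 3 DIO-LFD mice fall into separate ranges, highest for DIO-LFD mouse 2.

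Single sites were compared on M, the log2 ratio of the methylated to the unmethylated share with 0.01 added to each, with limma over all 4 groups. Of 65610 sites, 2 passed an adjusted p of 0.05 (0.00305%), 1 in each direction, and both lay between genes. The first was nearest to the gene model Gm23036, at chr1:102628869 and 214849 bp from its start. Its level was 100% in all 4 DIO-VSG mice and 86.5%, 80% and 95% in DIO-LFD mice, a difference in M of 3.8 (SE 0.409, limma adjusted p = 0.0251). The second was nearest to Mroh2b, at chr15:4862190 and 36547 bp upstream. It was 100% in all 3 DIO-LFD mice and 83.3%, 90.0%, 85.7% and 91.7% in DIO-VSG mice, a difference in M of -3.88 (SE 0.467, limma adjusted p = 0.0460). In each, 1 group stood at full methylation in every mouse, and the levels differed by 12.8 and -12.3 percentage points. Both sites lay within CCGG. The windows around them, read from the forward strand of GRCm38 with the CCGG that holds the measured cytosine in capitals, are shown because these are the sites that passed, at chr1:102628839-102628900 and chr15:4862160-4862221.
Gm23036 site: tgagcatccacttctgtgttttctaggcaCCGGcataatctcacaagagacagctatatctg
Mroh2b site: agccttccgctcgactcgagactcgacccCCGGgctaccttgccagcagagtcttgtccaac

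Neither call held with an offset of 0.1 in M, with levels in place of M or with a trended and robust prior (0 sites each). With DIO-VSG and DIO-LFD mice alone in the fit, 21 sites passed, 14 of them higher in DIO-VSG mice. These included the Mroh2b site and not the Gm23036 site, whose adjusted p was then 0.136.

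Below that threshold, more sites were higher in DIO-VSG than in DIO-LFD mice. An unadjusted p under 0.05 was reached by 1590 sites higher in DIO-VSG mice (2.42%) and 1018 lower (1.55%), in all 3.98% of the sites tested. Of these, 61% were higher, but once each mouse was centred on its own median, 1149 were higher and 1900 lower, or 37.7% higher. Before centring the median difference in M over all sites was 0.16, and after it was -0.035. The levels of the 4 and the 3 mice did not overlap at 3234 sites higher in DIO-VSG mice (4.93%) and 1842 lower (2.81%). The absolute difference between group means had a median of 4.06 points over all sites and a 95th percentile of 12.3 points. A difference of at least 30 points was found at 25 sites higher and 29 lower in DIO-VSG mice, 11 of each with mice that did not overlap.

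The 6 sites with the smallest p in each direction among those 22 are described by value, since none passed the adjusted threshold (limma adjusted p of 0.672 to 0.945). The site nearest to Rubie, a long noncoding RNA gene, lay at chr14:46635090 in an intron of 4933425B07Rik. It was 59244 bp from the Rubie transcript start used in the deposited annotation. Its level was 50.0%, 52.8% and 40.0% in DIO-LFD mice and 72.2%, 90.9%, 81.4% and 88.7% in DIO-VSG mice. The groups were separated by nearly 20 points there, and CON-LFD mice lay above the DIO-LFD mice at 56.3% to 72.7%, the highest of them within the DIO-VSG range. The window chr14:46635060-46635121 on the forward strand is shown because this site had the smallest p of the 12, with the measured CpG in capitals.
Rubie site: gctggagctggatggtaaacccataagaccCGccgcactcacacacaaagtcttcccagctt

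Tmem28, which encodes a membrane protein, had a promoter island site at chrX:99821002, 19 bp upstream of its start. It read 37.5%, 20% and 40.0% in DIO-LFD mice and 50.8%, 71.4%, 62.5% and 72.4% in DIO-VSG mice. A site on chromosome 18 was assigned to Tshz1, a zinc finger transcription factor gene. It lay between genes, 120473 bp from the transcript start used in the deposited annotation. It read 50.0%, 75.7% and 57.9% against 92.9%, 100%, 88.1% and 89.9%. In both, all 4 DIO-VSG mice were above the 3 DIO-LFD mice. A further pair of such sites lay near the gene models Gm23554 (61.4% ± 9.24 in DIO-LFD, SD, n = 3, and 92.3% ± 5.88 in DIO-VSG, SD, n = 4) and Gm24720 (60.5% ± 28.7, SD, n = 3, and 91.3% ± 1.90, SD, n = 4).

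Among the sites lower in DIO-VSG mice, 1 lay in coding sequence of Hes7, a transcriptional repressor of the segmentation clock, at chr11:69121540; the deposited table assigns it to 9130213A22Rik on the other strand. It read 88.9%, 100% and 100% in DIO-LFD mice and 48.6%, 58.6%, 51.2% and 53.1% in DIO-VSG mice. Here the DIO-VSG mice lay close to each other, and the gap to the nearest DIO-LFD mouse was about 30 points. Both this site and the Gm43573 site named below lay within CCGG, a context described further on. CON-LFD mice ran from 58.5% to 93.3% and DIO-HFD mice from 36.8% to 94.4%, across both groups. A site 26418 bp upstream of Kansl1, a subunit of a histone acetyltransferase complex, read 92.3%, 86.7% and 69.2% against 42.9%, 64.6%, 60.0% and 40.0%. A promoter island site of Gm43573, in an intron of the adhesion receptor gene Adgrl2, read 95.2%, 56.2% and 90.0% against 39.1%, 54.5%, 46.7% and 55.0%. At this site 1 DIO-LFD mouse was within 2 points of the DIO-VSG range. Sites near Gm45397 (55.4% ± 3.69, SD, n = 3, and 23.3% ± 9.10, SD, n = 4) and the antibody gene segment Ighv1-71 (68.4% ± 20.3, SD, n = 3, and 21.8% ± 12.2, SD, n = 4) were also among them.

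**Figure D3:**
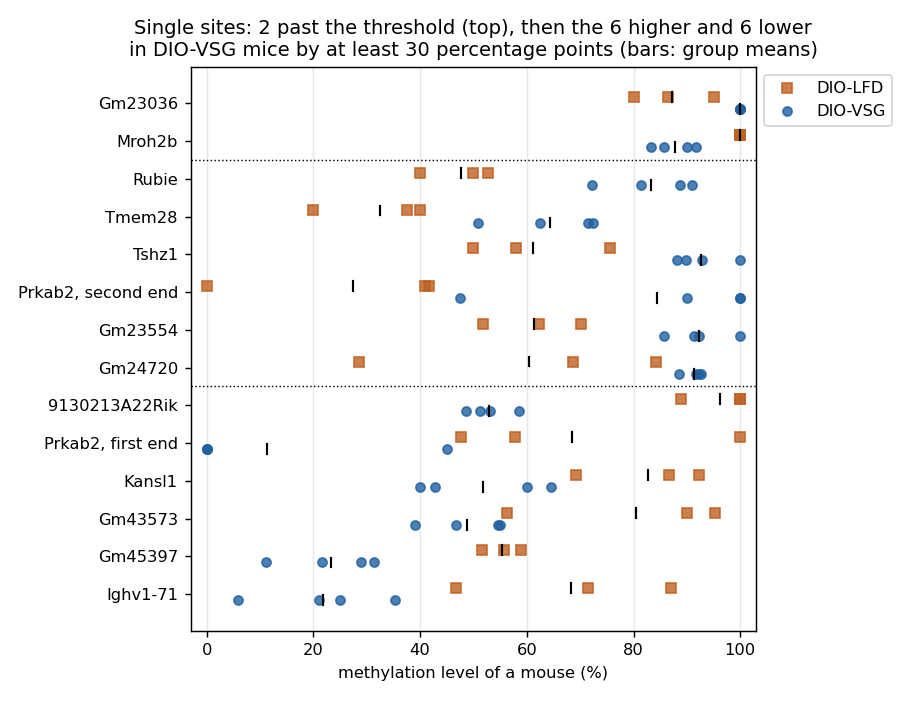
Methylation level in percent of each DIO-LFD (squares) and DIO-VSG mouse (circles) at 14 sites, labelled by nearest gene; black bars are group means and dotted lines divide the 2 sites past the threshold, 6 higher and 6 lower in DIO-VSG mice. The Prkab2 ends mirror each other, with 3 DIO-VSG mice at 0% on the first end and at 90.0% to 100% on the second.

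Among the sites named here, the largest differences were at 2 sites of 1 gene in opposite directions. Prkab2 encodes a regulatory subunit of AMP-activated protein kinase, the cellular energy sensor. At chr3:97658529, in its promoter CpG island, the level was 100%, 57.8% and 47.6% in DIO-LFD mice and 0%, 0%, 0% and 45.0% in DIO-VSG mice. At chr3:97658643, 114 bp downstream, it was 0%, 41.7% and 40.9% in DIO-LFD mice and 100%, 90.0%, 100% and 47.5% in DIO-VSG mice. In DIO-LFD mouse 1 and DIO-VSG mice 1 to 3, 1 site was at 0% and the other at 90% to 100%, whereas in the other mice both were intermediate. The sum of the 2 levels lay between 87.3% and 100% in all 14 mice. Both are CCGG sites with no CCGG between them, that is, the 2 ends of 1 MspI fragment. Each end is shown as 30 bases of the forward strand of GRCm38, chr3:97658528-97658557 and chr3:97658616-97658645, with CCGG in capitals.
Prkab2 first end: CCGGggcgcccctgacgcagccgcgggggt
Prkab2 second end: gggaaacactaccagcgagcgggtgtCCGG

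The pattern was not particular to Prkab2, and a search for it was added after these values were seen. The table holds 6915 pairs of neighbouring CCGG sites at most 300 bp apart with no CCGG between. In the 2165 pairs within promoter islands, the levels of the 2 ends summed to a median of 98.4%, and in 78.7% of them the mean sum over the 14 mice was within 10 points of 100%. The sum varied less between mice than its parts, with a median SD of 3.54 points against 5.92 for a single end. Promoter pairs outside islands, 932 in number, had a median sum of 107%, and 48.9% of them were within 10 points of 100%. In introns the median sum of 1119 pairs was 145%, and 14.7% of the pairs were within 10 points of 100%. Between DIO-VSG and DIO-LFD mice, the 2 ends differed in opposite directions in 1069 of the 1370 promoter island pairs tested (78.0%). The counts were 336 of 573 promoter pairs outside islands (58.6%) and 322 of 789 intron pairs (40.8%). Ends of such a pair belong to 1 fragment, so their levels are not independent measurements. What produces the sums was not tested.

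The CCGG context thus bears on each class with islands and, to a lesser extent, on promoters outside them. The 4727 promoter island sites within CCGG had a mean level of 49.2% ± 0.489 in DIO-VSG mice (SD, n = 4) and 49.4% ± 0.688 in DIO-LFD mice (SD, n = 3). The 3163 others there stood at 32.7% ± 0.278 and 31.3% ± 2.04, a difference of 1.38 points against -0.190 within CCGG. Over all tested sites the difference was 1.83 points outside CCGG and 0.567 within it. At promoter sites outside islands the difference was 2.27 points outside CCGG, against 1.64 over all such sites. Of the sites with a difference of at least 30 points, 15 of the 25 higher and 22 of the 29 lower in DIO-VSG mice lay within CCGG, where 29.1% of all tested sites lie. A level of exactly 0% or 100% in at least 1 of the 7 mice was found at 18 and 25 of these sites, compared with 16.6% of all tested sites. Outside CCGG no site passed the adjusted threshold in limma (0 of 46521, with 1697 at an unadjusted p under 0.05).

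**Figure D4:**
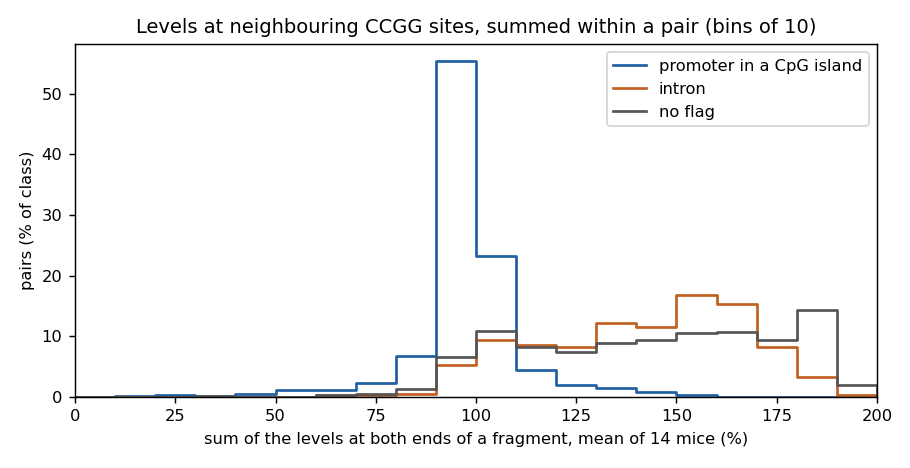
Sum of the levels at the 2 ends of an MspI fragment, as the mean over 14 mice in percent, for neighbouring CCGG sites in promoter CpG islands, introns and sites without a flag; the vertical axis gives the share of pairs in bins of 10. Promoter island pairs peak at 100% (median 98.4%), whereas intron pairs center on 145%.

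Averaged over runs of at least 3 neighbouring sites with gaps of at most 200 bp, 0 of 7141 regions passed the adjusted threshold in limma (0%), and the smallest adjusted p was 0.619. At an unadjusted p under 0.05 there were 126 regions higher in DIO-VSG mice (1.76%) and 67 lower (0.938%). Mice did not overlap in 372 regions higher (5.21%) and 213 lower (2.98%). After centring, the regions at that unadjusted p were 97 higher and 161 lower. The 8 regions of smallest p in each direction, among those without overlap, follow by value, and their limma adjusted p-values lay between 0.619 and 0.949.

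The region of smallest p lay in Col12a1, which encodes the chain of type XII collagen, a collagen that associates with fibrils. It covers 4 CpGs at chr9:79714542-79714584, in a stretch the table flags as intron and GENCODE as an exon of the gene. The transcript start used in the deposited annotation is 3935 bp away. Its mean level was 6.48%, 9.46% and 38.2% in DIO-LFD mice and 2.17%, 2.50%, 0% and 1.32% in DIO-VSG mice. DIO-LFD mouse 3 thus stood far above all others, and the other two were a few points above the DIO-VSG mice. On M the difference was -3.37 (SE 0.619, limma adjusted p = 0.619), and without DIO-LFD mouse 1 the adjusted p was 0.0471. Each of the 4 CpGs had the lower mean in DIO-VSG mice, with differences of -14.6 to -18.9 points. The region at chr9:79714532-79714595 is shown on the forward strand, with the measured CpGs in capitals.
Col12a1 region: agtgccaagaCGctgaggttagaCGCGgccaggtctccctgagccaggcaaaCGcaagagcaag

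The 4 sites assigned to Src, the gene of a tyrosine kinase, lay between genes at chr2:157490640-157490726, past the end of Src at 157471862 in GENCODE. They were 33557 bp downstream of the transcript start used in the deposited annotation. Their mean level was 77.1%, 70.8% and 74.5% in DIO-LFD mice and 57.5%, 63.1%, 58.8% and 60.2% in DIO-VSG mice. The 2 groups were about 8 points apart at their closest, and both had small spreads, with means of 74.2% ± 3.14 (SD, n = 3) and 59.9% ± 2.42 (SD, n = 4). All 4 sites had the lower mean in DIO-VSG mice, with differences of -10.6 to -20.2 points. A region of 5 sites near Gdnf, which encodes a neurotrophic factor that signals through the receptor Ret, had higher levels in DIO-VSG mice. It lay 7611 bp upstream of the transcript start in the same annotation. It read 56.8%, 63.3% and 63% in DIO-LFD mice and 83%, 75.7%, 77.1% and 69.9% in DIO-VSG mice, and each of its 5 sites had the higher mean in DIO-VSG mice, by 10.9 to 18.9 points. Such agreement between sites is favored by choosing regions without overlap, and it also held at Col12a1 above and at Arhgap27, Nectin3 and Kank4 below. Single sites could overlap. At chr15:7803355 near Gdnf, DIO-VSG mouse 2 read 60.0% and DIO-LFD mice 52.9%, 73.6% and 67.9%. Both windows are shown as examples of a lower and a higher region, at chr2:157490630-157490737 and chr15:7803314-7803411. They are on the forward strand, with measured CpGs in capitals and CCGG in full where it holds one.
Src region: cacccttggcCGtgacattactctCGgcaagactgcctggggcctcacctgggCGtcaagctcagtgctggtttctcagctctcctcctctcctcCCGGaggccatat
Gdnf region: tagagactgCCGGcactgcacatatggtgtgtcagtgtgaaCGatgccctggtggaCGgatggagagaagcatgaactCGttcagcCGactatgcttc

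Other regions higher in DIO-VSG mice included 2 close to gene starts. Arhgap27, a gene for a GTPase-activating protein, had 4 promoter sites at chr11:103361876-103361933 that averaged 32.0%, 25.0% and 27.5% in DIO-LFD mice and 42.3%, 42.2%, 36% and 42.2% in DIO-VSG mice. The difference came mainly from the outer sites, at 25.8 and 18.7 points, with 2.94 and 2.78 points at the inner sites. Nectin3, a cell adhesion gene, had 4 sites that averaged 9.96%, 9.56% and 6.90% against 12.8%, 18.1%, 13.7% and 17.1%. They lay 1118 bp from the transcript start used in the deposited annotation, and in an intron of the gene in GENCODE. The Arhgap27 window, chr11:103361866-103361944, holds a run of CG repeats followed by a CCGG, all measured and in capitals.
Arhgap27 region: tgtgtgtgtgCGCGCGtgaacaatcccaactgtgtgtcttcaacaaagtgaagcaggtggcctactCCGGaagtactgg

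The rest of the higher regions were far from starts or in gene families of repeated members. Their DIO-LFD and DIO-VSG means were 89.3% and 95.5% near Gm24064, 75.9% and 85.4% in the vomeronasal receptor gene Vmn2r18, and 85.0% and 95.3% near Dcaf12l2 on chromosome X. They were 89.5% and 97.5% near the light-chain segment Igkv6-25 and 78.1% and 87.3% near Gm25485. Lower regions included an intron of Elmo1, an adaptor in phagocytosis, assigned by the table to Aoah, with 95.1%, 94.6% and 95.2% in DIO-LFD and 84.1%, 90.0%, 88.6% and 93.4% in DIO-VSG mice. Upstream of Hs3st3b1, a heparan sulfate sulfotransferase gene, the values were 29.7%, 29.6% and 25.7% against 15.5%, 17.9%, 14.9% and 19.5%. In coding sequence of Kank4, assigned to Kank4os, they were 63%, 59.4% and 57.9% against 48.2%, 48.3%, 48.7% and 46.9%. The DIO-VSG mice agreed to within 2 points at Kank4, although at its single sites they ranged from 28.3% to 61.5%. Means were 97.5% and 90.7% near Gm2165, 70.1% and 55.6% in an intron shared by Gm29123 and the centriole gene Poc1a, and 70.5% and 64.1% near the forkhead gene Foxl1.

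**Figure D5:**
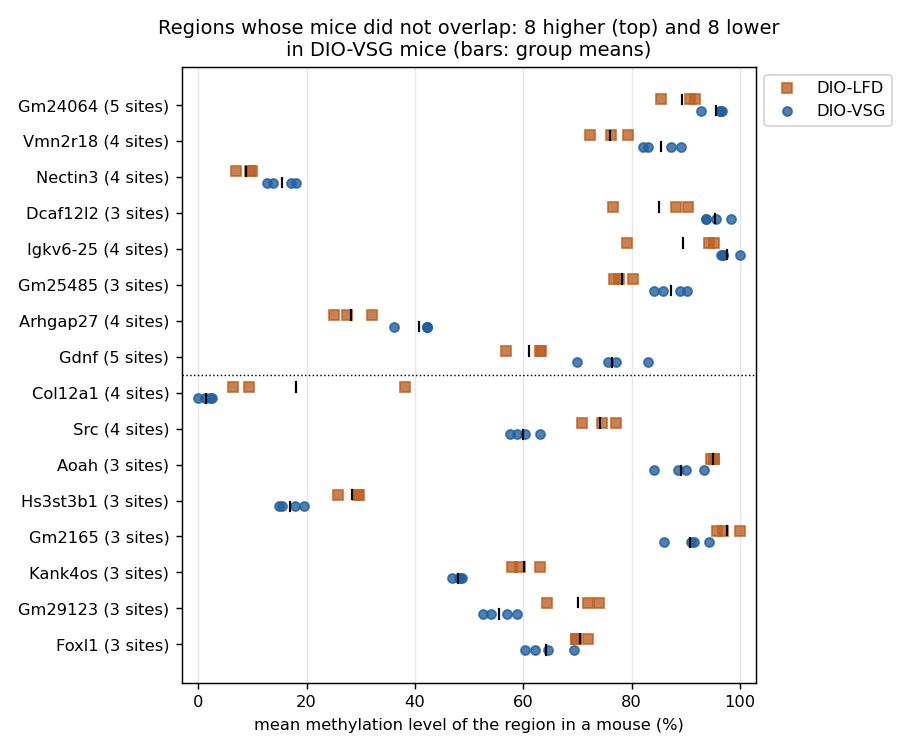
Mean methylation level in percent of each DIO-LFD (squares) and DIO-VSG mouse (circles) over 16 regions of 3 to 5 sites, labelled by nearest gene; black bars are group means and the dotted line divides 8 regions higher from 8 lower in DIO-VSG mice. The groups do not overlap in any region shown, which is how the regions were chosen, and Col12a1 has 1 DIO-LFD mouse at 38.2%.

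Averaged over all tested sites of a nearest gene, 0 of 11875 genes passed the adjusted threshold in limma (0%), and the smallest adjusted p was 0.0958. At an unadjusted p under 0.05 there were 390 genes higher in DIO-VSG mice (3.28%) and 188 lower (1.58%), and after centring 234 and 413. Mice did not overlap in 673 genes higher (5.67%) and 286 lower (2.41%). The 3 genes of smallest p, named after their values were seen, rested on 1 or 2 sites each. Adck1, the gene of a mitochondrial kinase-like protein, read 89.7%, 91.8% and 81.3% in DIO-LFD mice and 100%, 100%, 100% and 97.4% in DIO-VSG mice. A430027H14Rik read 0% in the 3 DIO-LFD mice and 4.88%, 16%, 17% and 3.1% in DIO-VSG mice. The 1 site nearest to Tanc2, a gene for a synaptic scaffold protein, read 50.9%, 46.4% and 56.3% in DIO-LFD mice and 29.4%, 20%, 16.7% and 26.5% in DIO-VSG mice. Its difference in M was -1.79 (SE 0.271, limma adjusted p = 0.0958), and on the scale of levels it was the 1 gene that passed, at an adjusted p of 0.0387.

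Genes with many sites are measured with less error, with a median SE in M of 0.304 against 0.408 for all genes. Among all genes, 3.28% were higher and 1.58% lower at an unadjusted p under 0.05. Of the 1657 genes with 10 or more sites, 13 were higher (0.785%) and 3 lower (0.181%). These genes too were looked up after their values were seen, as the 4 higher genes of smallest p and the 3 lower ones. Gm23507 averaged 41.8%, 40.3% and 42.8% over 14 sites in DIO-LFD mice and 79.2%, 69.5%, 48.7% and 59.1% in DIO-VSG mice. Gm24064 averaged 86.5% ± 1.88 (SD, n = 3) and 91.6% ± 1.11 (SD, n = 4) over 10 sites, and Dcaf12l2 79.7% ± 3.08 (SD, n = 3) and 84.5% ± 0.710 (SD, n = 4) over 16 sites. The difference at Gm23507 was the widest of these, and its DIO-VSG mice were spread over more than 30 points. Klf2, a transcription factor gene active in vessels and lymphocytes, averaged 39.2%, 45.9% and 39.2% over 21 sites in DIO-LFD mice and 30.9%, 36%, 33.9% and 35.3% in DIO-VSG mice. Adm, which encodes the vasodilator adrenomedullin, averaged 27.9%, 28.2% and 33.0% over 15 sites against 27.5%, 22.7%, 23.2% and 25.5%. Prmt5, an arginine methyltransferase gene, averaged 59.7%, 63.1% and 64.8% over 10 sites against 77.8%, 71.9%, 68.9% and 68.8%. Shox2, a homeobox gene, averaged 55.1% ± 4.89 (SD, n = 3) and 47.8% ± 1.36 (SD, n = 4) over 15 sites. The groups did not overlap in any of these 7 genes, which were picked by smallest p. Their limma adjusted p-values lay between 0.948 and 0.955. Among all genes, mice did not overlap in 5.67% higher and 2.41% lower.

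Gene groups with known roles in adipose tissue and weight loss gave no gene past the adjusted threshold in limma, and 5 past an unadjusted p under 0.05. Of these, Hoxc9 and Thrb were higher and Igfbp4, Fzd1 and Rasgrf1 lower in DIO-VSG mice, where 3.28% and 1.58% of all genes were. Hoxc9, Igfbp4 and Fzd1 rested on 1 site each, Rasgrf1 on 2 and Thrb on 5. After centring, Hoxc9 and Thrb no longer reached an unadjusted p under 0.05, Pik3r1 and Dnmt3a did, and all 5 genes were lower. Many members had no tested site. Over all genes tested, the median difference in level was 1.29 points, 0.13 in M, with 7554 of 11875 genes higher in M in DIO-VSG mice. That is 63.6% of all genes, and after centring 43.8% were higher, the shares against which the counts of each list stand. Of 20 tested among 35 adipocyte and lipid storage genes, 17 were higher in M and 12 after centring, with a median of 2.52 points and 0 at an unadjusted p under 0.05 in either direction. The example of smallest p was Acacb, which encodes an acetyl-CoA carboxylase that controls fatty acid oxidation. It read 47.3%, 47.9% and 49.4% in DIO-LFD mice and 53.7%, 53.9%, 53.0% and 52.3% in DIO-VSG mice, without overlap but with a limma adjusted p of 0.955. Pnpla2, the adipose triglyceride lipase gene, averaged 72.3% ± 4.38 (SD, n = 3) and 77.3% ± 1.57 (SD, n = 4), with overlap. Slc2a4, the insulin-responsive glucose transporter gene, averaged 83.4% ± 2.47 (SD, n = 3) and 88.0% ± 0.981 (SD, n = 4), without overlap.

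Of 15 tested among 30 thermogenic fat genes, 5 were higher in M and 4 after centring, with a median of -0.672 points, and 1 reached an unadjusted p under 0.05. That gene was Hoxc9, a developmental homeobox gene of white fat, at 53.4%, 57.6% and 61.5% in DIO-LFD mice and 62.7%, 76.0%, 59.5% and 66.5% in DIO-VSG mice, which overlap. Ppargc1b, a coactivator of mitochondrial genes with 1 site, averaged 48.4% ± 4.19 (SD, n = 3) and 41.4% ± 4.75 (SD, n = 4). Tmem26, a marker of beige adipocytes, averaged 89.5% ± 3.24 (SD, n = 3) and 84.5% ± 5.04 (SD, n = 4). The groups overlapped at both Ppargc1b and Tmem26. Of 20 tested among 35 genes of insulin, IGF and mTOR signaling, 9 were higher in M and 8 after centring, and the median was -0.229 points. Igfbp4, which encodes an IGF-binding protein, reached an unadjusted p under 0.05 with 78.2%, 72.2% and 82.2% in DIO-LFD mice against 66.5%, 71.4%, 67.0% and 70.7%. Its 2 groups were less than 1 point apart at their closest. Pik3r1, the regulatory subunit gene of PI3-kinase, averaged 32.7% ± 2.05 (SD, n = 3) and 23.1% ± 6.80 (SD, n = 4), and its groups overlapped.

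Gut hormone, bile acid and appetite genes had 13 of 39 tested, of which 8 were higher in M, but 6 after centring, with a median of 2.19 points and 0 at an unadjusted p under 0.05. The receptor genes for cholecystokinin (Cckar), glucagon (Gcgr) and peptide YY (Npy2r) led by p, and the 2 groups overlapped in each. Gcgr averaged 58.5% ± 2.41 (SD, n = 3) and 62.0% ± 2.54 (SD, n = 4), whereas its promoter sites alone had a difference in M of -0.15. Of 16 tested among 41 inflammation and NF-kB genes, 13 were higher in M, but 6 after centring, with a median of 1.93 points and 0 at an unadjusted p under 0.05. Irf7, a transcription factor of the interferon response, read 80.2%, 58.8% and 64.2% in DIO-LFD mice and 82.8%, 81.2%, 79.1% and 79.9% in DIO-VSG mice. Rela, an NF-kB subunit gene, read 75.7%, 63.6% and 69.8% against 75.1%, 73.7%, 73.7% and 74.8%. In both genes DIO-LFD mouse 1 lay among or just above the DIO-VSG mice and the other two lay below.

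Of 39 tested among 54 Wnt signaling genes, 28 were higher in M and 14 after centring, with a median of 1.33 points. Fzd1, a Wnt receptor gene, reached an unadjusted p under 0.05 with 27.1%, 33.6% and 52.9% in DIO-LFD mice and 16.1%, 21.4%, 25.9% and 25.6% in DIO-VSG mice. Wnt5a, a ligand gene, averaged 61.9% ± 4.09 (SD, n = 3) and 65.3% ± 0.123 (SD, n = 4) over 7 sites. DIO-LFD mouse 1, at 65.8%, lay above all 4 DIO-VSG mice there. Of 32 tested among 42 TGF-beta, BMP and extracellular matrix genes, 24 were higher in M and 13 after centring, with a median of 1.16 points and 0 at an unadjusted p under 0.05. Tgfb1, the ligand gene, read 77.0%, 74.2% and 76.9% against 80.9%, 79.3%, 82.0% and 83.9%, without overlap (limma adjusted p = 0.955). Bmpr1a, a BMP receptor gene with 2 promoter sites, averaged 48.8% ± 1.19 (SD, n = 3) and 50.6% ± 1.14 (SD, n = 4), with every mouse within 3 points of 50%.

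Of 16 tested among 24 genes of DNA methylation enzymes and readers, 12 were higher in M and 10 after centring, with a median of 2.21 points and 0 at an unadjusted p under 0.05. Dnmt3a, which encodes a de novo methyltransferase, averaged 48.3% ± 0.486 (SD, n = 3) and 45.6% ± 1.90 (SD, n = 4), and its groups overlapped. Zbtb4, a methyl-CpG binding protein gene, averaged 68.1% ± 3.12 (SD, n = 3) and 77.0% ± 1.08 (SD, n = 4), without overlap. Of 20 tested among 36 imprinted genes, 11 were higher in M and 4 after centring, with a median of 0.0788 points. Rasgrf1, which is expressed from the paternal copy, reached an unadjusted p under 0.05 with 43.4%, 34.2% and 35.1% in DIO-LFD mice and 31.5%, 26.3%, 33.6% and 28.1% in DIO-VSG mice. Of 25 tested among 38 steroid and mammary hormone receptor genes, 16 were higher in M and 12 after centring, with a median of 0.926 points. Thrb, a thyroid hormone receptor gene, reached an unadjusted p under 0.05 at 73.4%, 77.7% and 79.2% against 79.6%, 82.6%, 81.7% and 83.5%, without overlap.

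Genes that mark the cell types of a fat pad were sparsely covered. Epcam, an epithelial surface protein gene with 1 site, was the 1 marker at an unadjusted p under 0.05, with 59.3%, 65.4% and 52.5% in DIO-LFD mice and 71.7%, 63.3%, 73.1% and 71.1% in DIO-VSG mice, which overlap, and it did not reach that p after centring. Tested sites were found for 4 of 7 epithelial, 2 of 7 adipocyte, 7 of 11 lymphocyte, 1 of 5 macrophage and 2 of 4 endothelial markers. Of the 4 epithelial genes, 3 were higher in M, before and after centring. Krt8, with 3 sites, was lower, at 58.2% in DIO-LFD and 54.8% in DIO-VSG mice. Of the 7 lymphocyte genes, 2 were higher in M and 1 after centring, with a median of -3.74 points. The 2 higher ones included Cd37, with 9 sites, at 63.2% in DIO-LFD and 67.8% in DIO-VSG mice. Rac2, a GTPase gene of blood cells with 1 site, read 72.1%, 74.2% and 68.3% against 62.0%, 61.6%, 61.5% and 58.1%, without overlap. Pecam1, an endothelial adhesion gene with 1 site, averaged 25.3% ± 5.36 (SD, n = 3) and 38.5% ± 11 (SD, n = 4), and its groups overlapped. Whether cell content differed between the groups was not tested.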

How the data were processed

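The authors aligned RRBS reads to mm10 with Bismark and, per the methods, called methylation with methylKit. The methods also state that 1 CON-LFD and 1 DIO-LFD mouse were left out for poor sequencing quality. They deposited the methylation level as a fraction of reads from 0 to 1 at 75761 sites in 14 mice, with the nearest transcript and flags for promoters, exons, introns, islands and upstream sequence. A filter on low variability is stated, yet 10151 sites have a standard deviation under 0.05; these were left out of the tests. No coverage is given, so depth is unknown and no counting interval or detection limit could be stated.

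Levels b became M = log2((b + 0.01)/(1 − b + 0.01)). Sites, regions and genes were fitted in 1 limma 3.58.1 model of 4 groups (R 4.3.3) with Benjamini-Hochberg adjustment, and mean levels per mouse by exact permutation (SciPy 1.17.1). Of 361 sites with no symbol and 201 whose symbol had turned into a date, 518 were named through GENCODE. Sequence context was read from GRCm38. Named sites had to have a difference of at least 30 points and mice that did not overlap, with the 6 of smallest p in each direction; regions were the 8 of smallest p in each direction without overlap; and each gene list gave its 3 genes of smallest p, of which the text describes most. These rules, the gene lists and the comparison itself were chosen with earlier results of these data known. The site fit was checked on simulated levels drawn from each site's own mean and spread, over 65610 sites. Of 200 sites changed by 4 in M, 182 were recovered, with 12 false calls at unchanged sites. With a change of 2, 57 of 200 were recovered, with 9 false calls. In both runs false calls made up a larger share of all calls than the adjusted threshold of 0.05 allows on average. The changed sites were all of intermediate mean level. The check therefore does not cover sites near full methylation, such as the 2 that passed. Whether either of these is a false call was not tested. In a further run the change of 2 was placed at sites of lowest spread. There 192 of 200 were recovered, with 6 false calls, a smaller share than the threshold allows.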

Additional observations from a re-analysis of the deposited data

Results flagged for a closer look

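In 82 groups of 4 DIO-VSG values, 7 had 1 mouse far from the other 3, with a gap to the nearest mouse, as a share of the whole range, above Dixon's critical value, where chance gives about 4.1 (1 in 20). The first end of the Prkab2 fragment had a gap of 1 of the range, with DIO-VSG mouse 4 at 45.0% and the others at 0%. Bmpr1a also had a gap of 1, with DIO-VSG mouse 1 at 52.3% and the others at 50.0%. The Arhgap27 region had 0.983, with DIO-VSG mouse 3 at 36% and the others at 42.2% to 42.3%. The Gm24064 region had 0.887, with DIO-VSG mouse 2 at 92.9% and the others from 96.2% to 96.7%. The Igkv6-25 region had 0.861, with DIO-VSG mouse 3 at 100% and the others from 96.4% to 96.9%. Rac2 had 0.888, with DIO-VSG mouse 4 at 58.1% and the others from 61.5% to 62.0%. Vdr, the vitamin D receptor gene, had 0.852, with DIO-VSG mouse 2 at 95.2% and the others from 90.1% to 90.8%. The 7 gaps did not share a mouse, since mouse 4 was the one apart in 2, mouse 3 in 2, mouse 2 in 2 and mouse 1 in 1. The cause of none of them was tested.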

How the results depend on the processing

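The number of sites past the adjusted threshold, 2 as reported, was 0 with an offset of 0.1, levels in place of M, a trended and robust prior, a standard deviation of at least 0.1, an adjusted p under 0.01, or sites outside CCGG only (an alternative chosen after seeing the data). It was 21 with DIO-VSG and DIO-LFD mice only and 1 with no filter on the standard deviation. With the replicate number as a block it was 0. Mice with the same number did not deviate together (r of 0.0405, -0.0411 and 0.0128), so the replicate block carries no pairing; with it, Adipoq had a difference in M of -0.28. Leaving out 1 mouse at a time gave 0 to 13 sites, with 13 without DIO-LFD mouse 2, 12 without DIO-LFD mouse 3, 10 without DIO-VSG mouse 2, 7 without DIO-LFD mouse 1, 5 without CON-LFD mouse 1 or 2 or DIO-VSG mouse 4, 1 without DIO-VSG mouse 3, and 0 without CON-LFD mouse 3, DIO-HFD mouse 2 or 3 or DIO-VSG mouse 1. Sites at an unadjusted p under 0.05, 2608 as reported, were 527 with a standard deviation of at least 0.1, 1697 outside CCGG, and 2197 to 4445 with 1 mouse left out (4445 without DIO-HFD mouse 1 and 4280 without DIO-LFD mouse 1). Regions past the threshold were 1 (Gm22603) with a standard deviation of at least 0.1, and 0 to 1 with 1 mouse left out (Col12a1 without DIO-LFD mouse 1, Shox2 without DIO-LFD mouse 3). Regions at an unadjusted p under 0.05, 193 as reported, were 497 with DIO-VSG and DIO-LFD mice only, 23 with a standard deviation of at least 0.1, 54 in runs of at least 5 sites, and 143 to 489 with 1 mouse left out (489 without DIO-HFD mouse 1, 350 without DIO-LFD mouse 1). Genes past the threshold were 1 on the scale of levels and 0 to 3 with 1 mouse left out (3 without DIO-VSG mouse 4). Genes at an unadjusted p under 0.05, 578 as reported, were 232 with a standard deviation of at least 0.1, 264 from promoter sites, 327 from sites within 5000 bp of the start, and 473 to 896 with 1 mouse left out (896 without DIO-HFD mouse 1). Fewer features enter the fit under the stricter filters; the cause of the other changes was not tested.

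Some directions turned. The difference at promoter island sites was -0.0306 points as a median over sites. At sites under 20% it was 0.0473 in mean M, and with 1 mouse left out it ran from -0.442 to 0.522 points (0.522 without DIO-LFD mouse 1). Differences in M turned for Gcgr (-0.15 from promoter sites, -0.053 within 5000 bp of the start) and Vdr (-0.40 with no filter). With 1 mouse left out they ran from -0.069 to 1.04 for Fxr1 (turned without DIO-VSG mouse 3), from -2.14 to 0.41 for Blcap, from -0.11 to 1.49 for Nr3c2 and from -0.17 to 1.21 for Adgre1 (all turned without DIO-LFD mouse 1), from -0.29 to 0.95 for Adipoq (turned without DIO-VSG mouse 4 or DIO-LFD mouse 1), and from -0.030 to 0.89 for Krt18 and -0.39 to 0.0013 for Lat (turned without DIO-LFD mouse 2). The mean level over all sites kept its direction, from 0.574 to 2.49 points with 1 mouse left out. Of the values for named sites, regions and genes, 1747 kept their direction and side of the threshold, 25 lost the threshold, 2 gained it and 12 turned.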
